A study of Mus musculus with 12 samples.

Results

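The 10 genes described here encode the enzymes that carry long-chain fatty acids into the mitochondrion and shorten them there: Cpt1a, Cpt2, Acadvl, Acadl, Acadm, Hadha, Hadhb, Hadh, Acaa2 and Eci1. They were taken from a fixed list, as every non-control probe whose RefSeq record belongs to a listed gene. The list was chosen with earlier results of these data known. This gave 12 of the 39429 probes on the array, 2 each for Cpt1a and Cpt2 and 1 for each other gene, out of 20283 gene symbols in all. Liver RNA of male db/db mice, labelled as 8 weeks old, was examined on 12 two-color arrays. The db/db mouse carries a mutation of the leptin receptor, here on the BKS background, and becomes obese and diabetic, and this holds for the treated and the control mice alike. MgH2, a powder that releases H2 in the stomach, was suspended in glycerol and given by gavage once a day for 1, 3 or 7 days. The control mice received Mg(OH)2, and whether each of those days had controls of its own is not given in the sources used here. The MgH2 dose is 0.9 mg/kg in the labels and in a legend on plasma triglycerides over the same days, while the methods section names higher doses. For 14 days of treatment the mice instead drank H2-water at 0.8 mM, and their controls drank the same water after degassing. Each array set a pool of RNA from 3 treated mice (Cy5) against a pool from 3 control mice (Cy3), with 3 arrays for each of the 4 groups, so that a spread between arrays is a spread between pools. No array had its dyes swapped. Treatment and the dye preference of a probe therefore cannot be told apart in a ratio of treated over control, whereas a constant preference cancels in a difference between days.

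Beta-oxidation shortens a fatty acid from its carboxyl end in repeated cycles that yield acetyl-CoA and reduced electron carriers. Long-chain acids reach the matrix as carnitine esters, made by the CPT1 enzymes on the outer membrane and undone by CPT2 on the inner membrane. Each cycle then runs through an acyl-CoA dehydrogenase, a hydratase, a hydroxyacyl-CoA dehydrogenase and a thiolase. The liver relies on this pathway in fasting, when the acetyl-CoA also feeds ketone body synthesis, and CPT1A is the step held back by malonyl-CoA.

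In the liver of db/db mice, Cpt1a was the member that rose most by its brighter probe, 1.26-fold after 3 days and 1.34-fold after 7 days of MgH2 and 1.21-fold after 14 days of H2-water. By the mean of its probes it was below Hadhb at 3 days (log2 ratios 0.16 and 0.17) and below Eci1 at 14 days (0.10 and 0.17). The mean levels of the other 9 members lay between 0.844 and 1.13 times their controls in all 4 groups, some above and some below. Relative to the first day of MgH2, all 10 members had higher mean ratios at 3, 7 and 14 days, and the rise from 1 to 7 days passed the test for Cpt1a and Acadl. Each array's channels were background-corrected and balanced between dyes by the scanner software, and values are log2 ratios of treated over control. Group means and differences between days were tested with limma over all probes above background, and a probe is called higher or lower at a Benjamini-Hochberg adjusted p under 0.05.

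Both channels of all 12 probes exceeded background on each of the 12 arrays, as did 51.8% to 56.5% of the spots of each array, and no spot was saturated. The arrays of the 14 days were scanned on a slide of their own with another version of the software. Their treatment, slide and scan therefore cannot be told apart. The slides of the MgH2 days were each scanned separately too. Slide 1 held the 1-day arrays, and slides 2 and 3 held the 7-day arrays. Of 9 hepatocyte genes with a probe, 9 were tested on the MgH2 days and 7 at 14 days, while 0 of 5 skeletal muscle genes and 2 of 8 pancreas acinar genes were tested. The summed signal of 8 Kupffer cell and leukocyte genes had log2 ratios of -0.27 to 0.013 at 1 day, -0.38 to -0.29 at 3 days, -0.48 to -0.34 at 7 days and -0.18 to 0.17 at 14 days. Of 6 adipocyte genes, Adipoq, Plin1, Lep and Ucp1 were not tested because they were not above background throughout, and the summed log2 ratio of the list ran from -2.42 to -0.40 at 3 days, from -2.64 to -0.28 at 7 days, from -0.77 to 1.98 at 1 day and from 0.15 to 1.37 at 14 days. That of 4 red blood cell genes ran from -0.93 to 0.46 over the 12 arrays, on both sides of 0 at 3, 7 and 14 days. The part of these cell types in the results below was not tested. In such bulk RNA, fewer cells of a type and less RNA per cell cannot be told apart.

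The stretches before the starts of 3 members are shown because Cpt1a and Acadl differed between days and because Hadha and Hadhb, whose products form 1 enzyme complex, lie head to head. Hadha begins at position 30154980 and Hadhb at 30155253 of chromosome 5 (RefSeq, GRCm38.p6), on opposite strands, with 272 bases between their starts, so the sequence before Hadhb lies before Hadha too. Each sequence is the 250 bases before the start that the promoter table lists, on the gene's strand, at chr19:3323051-3323300 (+) for Cpt1a, at chr1:66863310-66863559 (-) for Acadl and at chr5:30155003-30155252 (+) for Hadhb. The gene record of Cpt1a begins further upstream, at 3322326, so its window lies within that record, while the other windows adjoin theirs. Capitals mark the letters AGGTCA (a nuclear receptor element), CCAAT and GGGCGG (a GC box) on either strand.
Cpt1a: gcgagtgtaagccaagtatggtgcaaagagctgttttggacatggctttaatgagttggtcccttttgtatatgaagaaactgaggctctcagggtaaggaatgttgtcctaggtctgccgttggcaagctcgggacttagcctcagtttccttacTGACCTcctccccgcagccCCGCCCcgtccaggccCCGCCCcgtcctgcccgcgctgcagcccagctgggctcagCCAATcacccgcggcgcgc
Acadl: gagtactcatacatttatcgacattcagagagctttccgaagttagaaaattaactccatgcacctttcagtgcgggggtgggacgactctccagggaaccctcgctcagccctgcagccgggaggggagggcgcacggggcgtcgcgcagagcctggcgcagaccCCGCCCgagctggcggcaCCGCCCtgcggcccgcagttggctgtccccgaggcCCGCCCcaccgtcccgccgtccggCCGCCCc
Hadhb: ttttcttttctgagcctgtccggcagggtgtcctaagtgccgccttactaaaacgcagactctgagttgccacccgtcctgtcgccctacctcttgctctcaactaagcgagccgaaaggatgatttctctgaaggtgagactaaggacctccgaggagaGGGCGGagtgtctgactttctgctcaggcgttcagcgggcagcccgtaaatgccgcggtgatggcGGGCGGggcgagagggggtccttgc

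GGGCGG was found before the starts of 7 of the 9 members with a listed promoter and in 32.7% of all 32851 promoters. AGGTCA was found before 3 of the 9, Cpt1a, Acadm and Acadvl, and in 14% of all promoters. A direct repeat of AGGTCA with 1 base between was found before none of the 9 and in 0.0335% of promoters. CCAAT lay before Cpt1a and Hadh and in 33.8% of promoters. These matches describe letters within 250 bases and say nothing of binding.

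Carnitine palmitoyltransferase 1A, the enzyme that commits long-chain acyl groups to the mitochondrion, was measured by a bright probe spotted 10 times. Its log2 ratios were 0.050, 0.17 and 0.062 after 1 day of MgH2, 0.28, 0.38 and 0.32 after 3 days, 0.41, 0.38 and 0.47 after 7 days, and 0.27, 0.17 and 0.37 after 14 days of H2-water. All 12 arrays thus lay above 0, and the arrays of 3 and 7 days lay above all 3 arrays of 1 day. Over all probes tested in every comparison, 7.27% were above 0 on all 12 arrays. Ratios of the MgH2 arrays correlated by replicate number, at 0.368 to 0.655 within a number. The 12 arrays are therefore not independent in this count or in the like counts below. The mean was 0.093 ± 0.065 (SD, n = 3) at 1 day, which did not pass the test (adjusted p = 0.217). It was 0.33 ± 0.052 at 3 days (adjusted p = 0.00115), 0.42 ± 0.047 at 7 days (adjusted p = 0.000197) and 0.27 ± 0.10 at 14 days (adjusted p = 0.00682). The calls at 3 and 7 days held without any 1 array, while that at 14 days was lost without array 1 (adjusted p = 0.0508) or array 3 (adjusted p = 0.0663). On array 1 of the 14 days the 10 spots spread from 0.16 to 0.72, with an SD of 0.16, against SDs of 0.012 to 0.028 on the other 11 arrays.

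**Figure D1:**
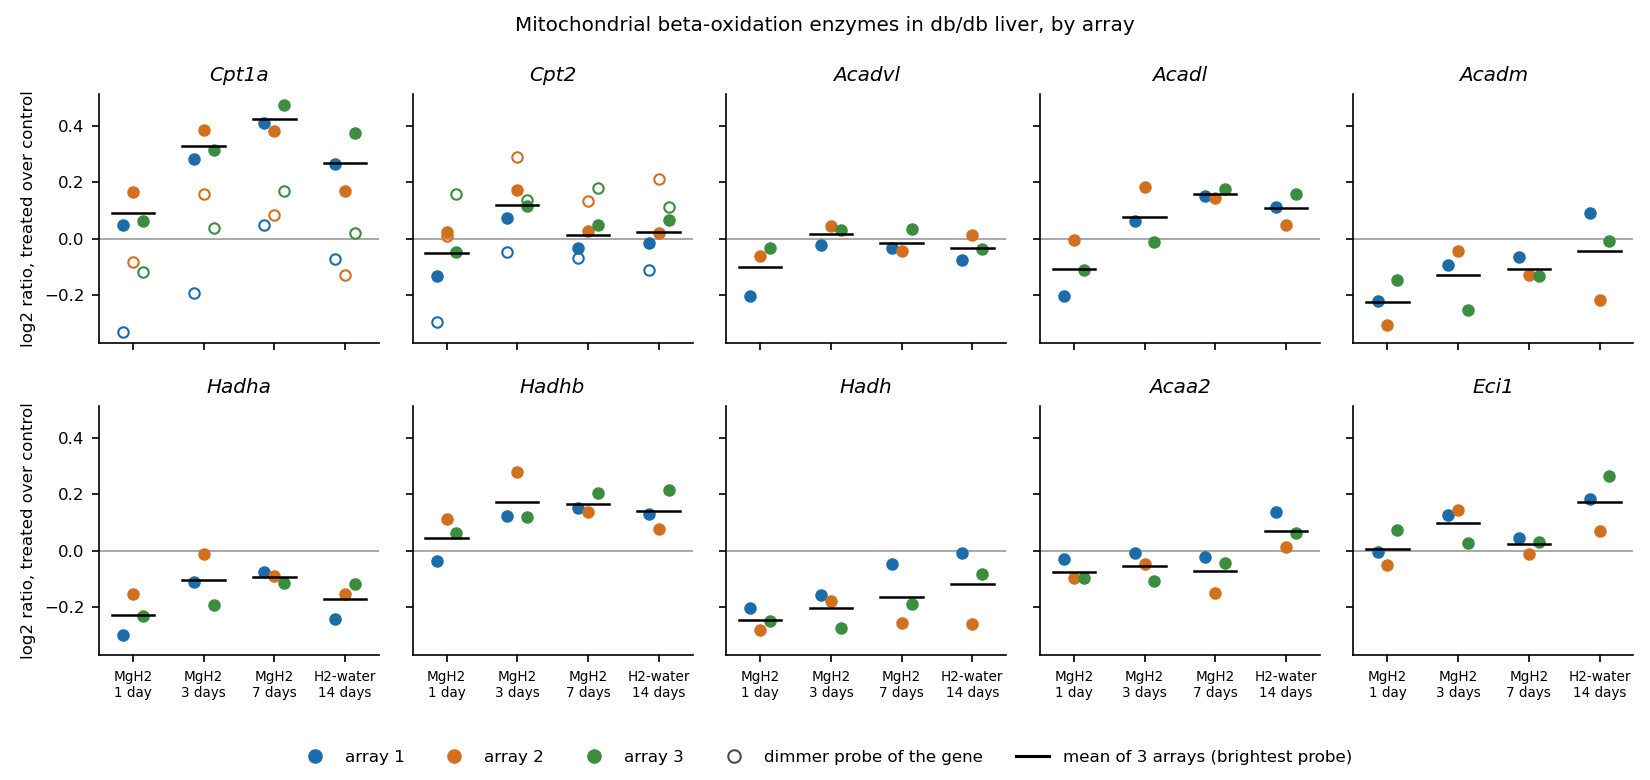
Log2 ratio of treated over control signal (vertical axis) for each of the 10 genes on the 12 arrays, by group (horizontal axis). Filled points are the gene's brightest probe, open points the dimmer probe of Cpt1a and Cpt2, colors the array number, and the bar the mean of 3 arrays. Cpt1a lies above 0 on all arrays by its brighter probe and lower by its dimmer one, and Hadha and Hadh lie below 0 on all arrays.

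A dimmer Cpt1a probe with 1 spot gave other values against the control. Its log2 ratios were -0.33, -0.081 and -0.12 at 1 day, -0.19, 0.16 and 0.038 at 3 days, 0.050, 0.085 and 0.17 at 7 days, and -0.072, -0.13 and 0.022 at 14 days. None of its 4 group means passed the test (adjusted p = 0.136, 0.99, 0.287 and 0.661). The brighter probe exceeded the dimmer one by a mean of 0.27, 0.33, 0.32 and 0.33 in the 4 groups in order of days. The probes thus disagreed on the level of the ratio, and their group means ran nearly parallel. On single arrays the excess ran from 0.18 to 0.47. Between 1 and 7 days the rise was 0.33 by the brighter probe (95% confidence interval 0.19 to 0.47, adjusted p = 0.0187) and 0.28 by the dimmer one (0.064 to 0.49, adjusted p = 0.105). The former call held without array 2 of either day (adjusted p = 0.0373 and 0.0417) and was lost without array 1 or 3 of 7 days (0.0521 and 0.0695) or of 1 day (0.0548 and 0.0530). Taking the mean of both probes in place of the brighter one ended the call at 14 days (log2 ratio 0.10, adjusted p = 0.247) and gave -0.041 at 1 day. It lowered the ratio to 0.16 at 3 days (adjusted p = 0.0480) and to 0.26 at 7 days (adjusted p = 0.00535).

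The 2 channels of the brighter Cpt1a probe were also read separately, each as the log2 signal over the array's 75th percentile. The control pools were at 4.39, 4.40 and 4.40 on days 1, 3 and 7, and the MgH2 pools at 4.49, 4.74 and 4.83. The control level thus differed little across the MgH2 days while the treated level increased. Deviations of the control channel from group means correlated at 0.322 to 0.671 within a replicate number across these days. If the same control pools were used again, which is not given, a steady control level was fixed in advance. At 14 days both channels were lower, 3.75 in the control and 4.02 in the H2-water pools, on a slide and scan of their own.

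**Figure D2:**
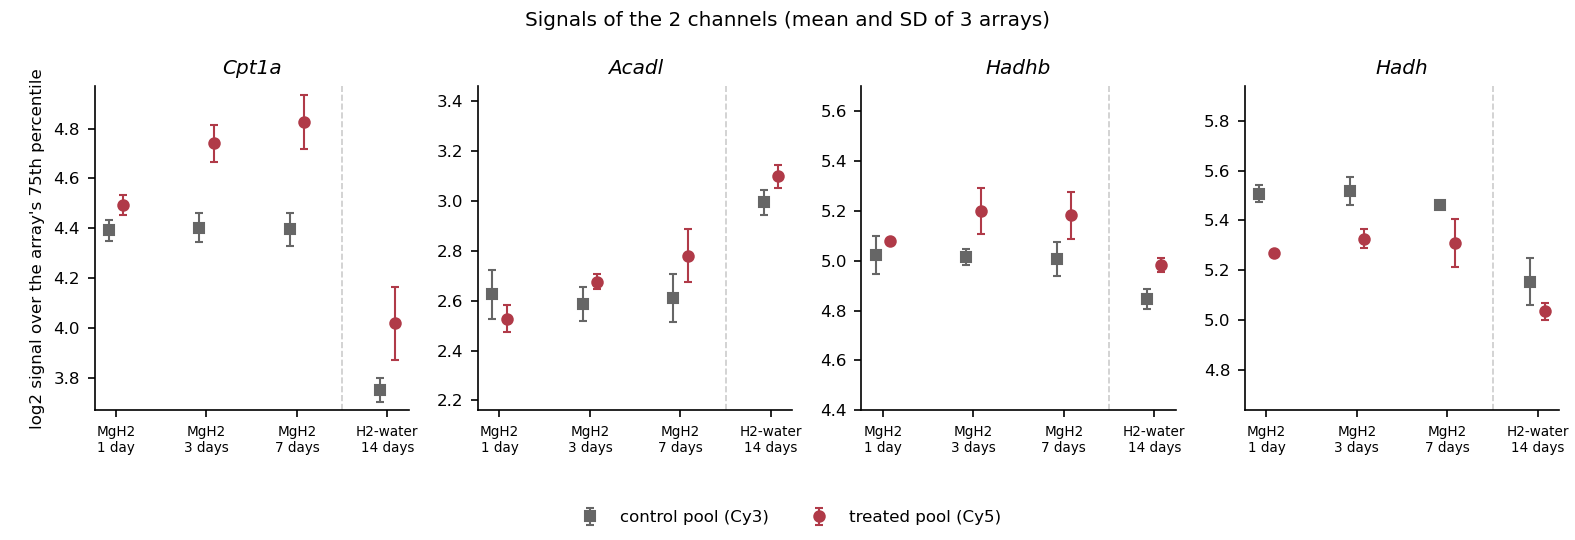
Log2 signal over the array's 75th percentile (vertical axis, mean and SD of 3 arrays) in the control and treated pools of each group (horizontal axis) for Cpt1a, Acadl, Hadhb and Hadh, each with its brightest probe. The dashed line separates the 14 days, which were on another slide and scan. The slides of the MgH2 days were each scanned separately too. For Cpt1a the control pools of the MgH2 days lie between 4.39 and 4.40 and the treated pools rise from 4.49 to 4.83.

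Cpt2, which returns the acyl group from carnitine to CoA inside the mitochondrion, was higher after 3 days of MgH2. Its brighter probe gave 0.074, 0.17 and 0.12 on the 3 arrays, all above 0, against -0.13, 0.025 and -0.045 at 1 day, -0.032, 0.028 and 0.049 at 7 days and -0.016, 0.019 and 0.066 at 14 days. The mean at 3 days was 0.12 ± 0.049 (adjusted p = 0.0463), and the call was lost without any 1 of the 3 arrays (adjusted p from 0.0722 to 0.226) and after scaling each channel by its total (adjusted p = 0.0991). The arrays of 3 days lay above those of both 1 and 7 days, but neither difference passed the test (0.17, adjusted p = 0.184, from 1 day). The dimmer probe had a like mean at 3 days, 0.13, with a wider spread of 0.17 (SD) and no call.

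The acyl-CoA dehydrogenases open each cycle, with Acadvl, Acadl and Acadm acting on very long, long and medium chains. Acadl was the one that moved between days. Its ratios were -0.20, -0.0038 and -0.11 at 1 day, 0.064, 0.18 and -0.010 at 3 days, 0.15, 0.14 and 0.18 at 7 days and 0.11, 0.050 and 0.16 at 14 days. The 3 arrays of 1 day lay below 0 and the 3 of 7 days above it. The mean of 0.16 ± 0.017 at 7 days passed the test (adjusted p = 0.0291), as did the rise of 0.26 from 1 to 7 days (95% confidence interval 0.12 to 0.41, adjusted p = 0.0416). The first call was lost without any 1 of the 7-day arrays (adjusted p from 0.0846 to 0.127) and after scaling each channel by its total (adjusted p = 0.0518). The rise between days held without array 2 of 1 day (adjusted p = 0.0497) and was lost without any other array (0.0803 to 0.119).

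Acadm was lower than its control at 1 day, with ratios of -0.22, -0.30 and -0.15, a mean of -0.22 ± 0.079 and an adjusted p of 0.0445. It was below 0 on 11 of the 12 arrays, a count for which the share over all probes was not computed. Its means of -0.13, -0.11 and -0.044 at 3, 7 and 14 days did not pass the test. The call at 1 day was lost without any 1 array (adjusted p from 0.0852 to 0.224). Acadvl ranged from -0.20 to 0.044 over the 12 arrays and was not called in any group, with means of -0.099, 0.018, -0.013 and -0.031. After scaling each channel by its total, its mean at 1 day was -0.13 and passed (adjusted p = 0.0490).

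The mitochondrial trifunctional protein performs the remaining 3 steps on long chains, with its alpha subunit encoded by Hadha and its beta subunit, the thiolase, by Hadhb. The probes of the 2 genes stood on opposite sides of their controls. Hadha gave -0.30, -0.15 and -0.23 at 1 day, -0.11, -0.010 and -0.19 at 3 days, -0.074, -0.088 and -0.11 at 7 days and -0.24, -0.15 and -0.12 at 14 days. It was below 0 on all 12 arrays, as were 5.8% of all probes, and was lower at 1 day (-0.23 ± 0.072, adjusted p = 0.0127) and 14 days (-0.17 ± 0.064, adjusted p = 0.0387). Hadhb gave -0.035, 0.11 and 0.064 at 1 day, 0.12, 0.28 and 0.12 at 3 days, 0.15, 0.14 and 0.20 at 7 days and 0.13, 0.077 and 0.21 at 14 days. It was above 0 on 11 of 12 arrays, as were 12.7% of all probes on at least that many, and was higher at 3 days (0.17 ± 0.089, adjusted p = 0.0197) and 7 days (0.17 ± 0.034, adjusted p = 0.0198).

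The gap between Hadhb and Hadha was nearly the same in every group, 0.27 ± 0.018 at 1 day, 0.28 ± 0.041 at 3 days, 0.26 ± 0.052 at 7 days and 0.31 ± 0.075 at 14 days. A gap of this kind compares the ratios of 2 probes without swapped dyes, and dye bias and treatment cannot be told apart in it. Between days, where a constant bias cancels, both genes had like differences from 1 day, 0.12 and 0.13 at 3 days and 0.14 and 0.12 at 7 days for Hadha and Hadhb, none of which passed the test. The Hadha call at 1 day was lost without array 1 (adjusted p = 0.0777) or array 3 (0.0603), and that at 14 days without any 1 array (0.111 to 0.223) and after normexp and loess (0.0908). The Hadhb call at 3 days was lost without array 2 (adjusted p = 0.139), and that at 7 days without any 1 array (0.0561 to 0.112) and after normexp and loess (0.0715).

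Hadh, the hydroxyacyl-CoA dehydrogenase for medium and short chains, was below its control on all 12 arrays, as were 5.8% of all probes. Its ratios were -0.20, -0.28 and -0.25 at 1 day, -0.15, -0.18 and -0.27 at 3 days, -0.045, -0.25 and -0.19 at 7 days and -0.0076, -0.26 and -0.081 at 14 days. The means of -0.24 ± 0.039 (adjusted p = 0.0218), -0.20 ± 0.063 (0.0232) and -0.16 ± 0.11 (0.0458) after 1, 3 and 7 days of MgH2 passed the test, and -0.12 ± 0.13 at 14 days did not (0.223). The groups overlapped, and no difference between days passed the test. The calls at 1 and 3 days were lost without any 1 array (adjusted p from 0.0714 to 0.127 and from 0.0543 to 0.129), and that at 7 days without array 2 (0.235) or array 3 (0.175).

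Acaa2, the thiolase of medium chains, had ratios of -0.030, -0.095 and -0.096 at 1 day, -0.0063, -0.046 and -0.11 at 3 days and -0.021, -0.15 and -0.041 at 7 days, all below 0. At 14 days they were 0.14, 0.012 and 0.065, all above 0. No group mean passed the test, nor did the differences of 14 days from 7 days (0.14, adjusted p = 0.14) and from 1 day (0.15, adjusted p = 0.318). Under normexp and loess the means at 3 and 7 days were 0.13 and 0.11, above 0 and past the threshold (adjusted p = 0.0238 and 0.0358), and the direction of Acaa2 on those days thus changed with this pair of steps, which were not run separately.

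Eci1, an isomerase that shifts the double bond of unsaturated chains so that they can enter the cycle, was higher after 14 days of H2-water. Its ratios there were 0.18, 0.069 and 0.27, with a mean of 0.17 ± 0.099 (adjusted p = 0.0380). On the MgH2 days its ratios ran from -0.049 to 0.14 and no mean was called. The call at 14 days was lost without array 1 (adjusted p = 0.166) or array 3 (0.245) and after scaling each channel by its total (0.0636). Cpt1a and Eci1 (as Dci) were picked by the study from these 14-day arrays, and their calls there are no independent evidence.

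Counted together, 0 members were higher and 3 lower at 1 day, where 9.38% of 19670 probes were called, 5.15% higher and 4.23% lower. At 3 days 3 were higher and 1 lower, against 23.4% of all probes (12.3% and 11.1%), and at 7 days 3 were higher and 1 lower, against 29.5% (15.3% and 14.2%). At 14 days 2 were higher and 1 lower, against 8.83% (4.92% and 3.9%). The median of the 10 log2 ratios was -0.087 at 1 day, 0.049 at 3 days, 0.00091 at 7 days and 0.048 at 14 days, and that of all probes lay between -0.0049 and 0.0059. The 10 members therefore did not shift together against their controls.

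Between days the members were more alike. All 10 differences of 3 days from 1 day were above 0, as were all 10 of 7 days and all 10 of 14 days, where 52.1%, 51.9% and 50.01% of all probes were above 0. These 3 comparisons share the 1-day arrays. Their medians over the members were 0.12, 0.10 and 0.14, against 0.0065, 0.0082 and 3.3e-05 over all probes. The arrays of 1 day carried this: the median of the members was -0.17, -0.055 and -0.071 on them, -0.027 to 0.094 on the 6 arrays of 3 and 7 days and 0.017 to 0.10 at 14 days. By size, no member was called between 3 days and 1 day, 2 between 7 days and 1 day (Cpt1a and Acadl, both higher) and none between 14 days and 1 day, where 0.0208%, 6.95% (3.26% higher) and 0.0747% of all probes were called. At an unadjusted p under 0.05 limma gave 3, 2 and 4 members, against 15.4%, 25.2% and 12.5% of all probes.

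**Figure D3:**
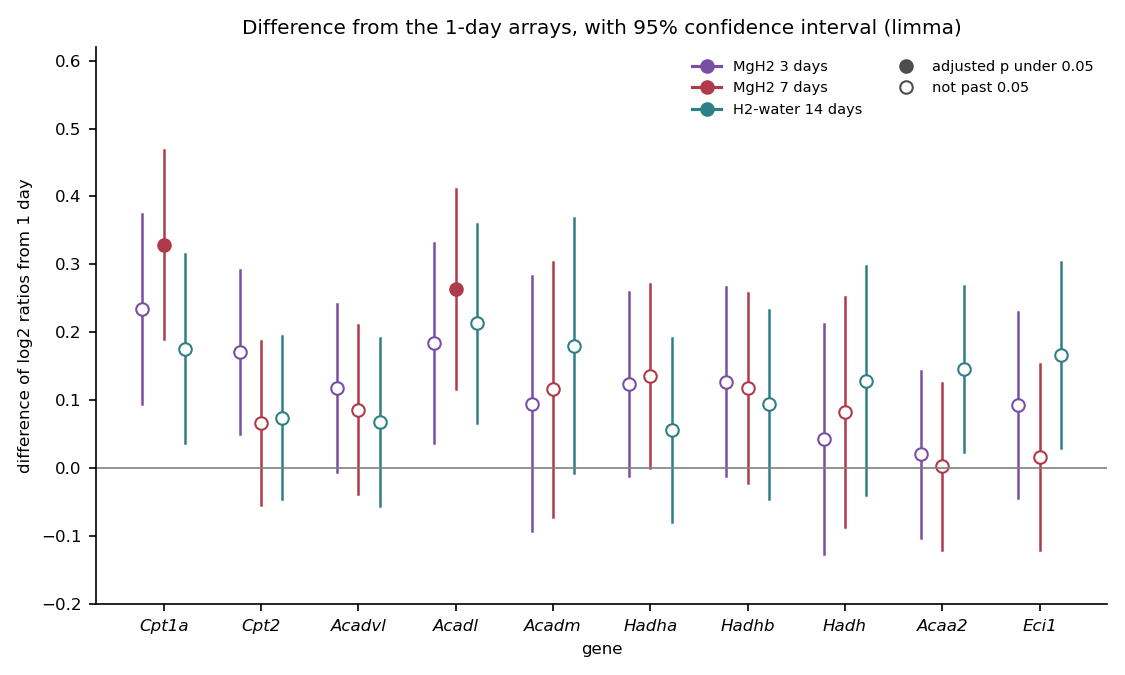
Difference of the mean log2 ratio from that of 1 day of MgH2 (vertical axis) for each gene (horizontal axis) after 3 and 7 days of MgH2 and 14 days of H2-water, with 95% confidence intervals from limma. Filled points passed an adjusted p of 0.05, which were Cpt1a and Acadl at 7 days. All 30 points lie above 0.

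The arrays of 3 days did not overlap those of 1 day for 4 members, Cpt1a, Cpt2, Acadvl and Hadhb, and the arrays of 7 days for 5, Cpt1a, Acadl, Acadm, Hadha and Hadhb, all higher. Over all probes 10.4% and 15.2% were higher without overlap in these comparisons. The arrays of 14 days lay above those of 1 day without overlap for 3 members, Cpt1a, Acadl and Acaa2, against 9.48% of all probes. Between 3 and 7 days none of the 10 members was called, and limma called 0 of 19100 probes in that comparison, with 904 at an unadjusted p under 0.05. The largest differences there were 0.095 for Cpt1a (95% confidence interval -0.045 to 0.23) and -0.11 for Cpt2 (-0.23 to 0.015), whose 7-day arrays lay below those of 3 days without overlap, as did 3.96% of all probes. From 7 days of MgH2 to 14 days of H2-water, which differ in agent, slide and scan as well as in time, no member was called, against 6.61% of all probes. The arrays did not overlap for Acaa2 and Eci1, higher at 14 days like 15.2% of all probes, and for Cpt1a and Hadha, lower like 17.2%. Cpt1a was lower there (log2 difference -0.15, adjusted p = 0.162) and Eci1 0.15 higher (adjusted p = 0.163).

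Slides could be compared for some of these days. On the slide that held all 1-day arrays and array 1 of 3 days, that array exceeded the 1-day mean by 0.19 for Cpt1a, 0.17 for Acadl and 0.067 to 0.13 for the other 8 members. On the slide with 2 arrays each of 3 and 7 days, the later arrays differed from the earlier ones by 0.047 for Cpt1a, by 0.062 for Acadl and by -0.15 for Cpt2. No slide held both 1-day and 7-day arrays. With the slide as a random block, both calls between 1 and 7 days held. As no slide held both days, this cannot separate slide from day for these calls. The correlation fitted within slides was -0.082, and calls over all probes rose from 1332 to 2553.

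Markers of other cells moved along the same days. Of the 7 Kupffer cell and leukocyte genes tested, 1 was higher and 3 were lower at 3 days and 5 were lower at 7 days, where 11.1% and 14.2% of all probes were lower. Their median log2 ratio was -0.36 and -0.45, against -0.063 at 1 day and -0.0040 at 14 days. Clec4f, a Kupffer cell lectin, was at -0.36 and -0.45 after 3 and 7 days (adjusted p = 0.0104 and 0.00237). Of the 9 hepatocyte genes tested, 4 were higher and 2 lower at 7 days, against 15.3% and 14.2% of all probes, with a median of 0.22. Alb, the serum albumin gene, was at 0.41 (adjusted p = 0.00013), while Hpx, which codes for the heme-binding hemopexin, was at -0.37 (0.0116) and Apob, which codes for the apolipoprotein of VLDL, at -0.34 (0.0118). At 14 days the median was -0.16 over 7 genes and none was called. The part of these shifts in the rise of Cpt1a and Acadl was not tested.

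Other genes of the pathway were followed in lists made from general knowledge, with earlier results of these data known. In the list for the entry of fatty acids, 12 of 14 genes were tested, and 2 were higher at 1 day, 1 higher and 3 lower at 3 days, 1 higher and 5 lower at 7 days and 1 higher at 14 days. Over all probes 5.15%, 12.3%, 15.3% and 4.92% were higher and 4.23%, 11.1%, 14.2% and 3.9% lower on these days. Between days, 1 gene of the list was higher and 2 were lower from 1 to 7 days, and 3 were higher from 7 to 14 days. In these comparisons 6.95% and 6.61% of all probes were called. Acacb, the mitochondrial acetyl-CoA carboxylase whose product malonyl-CoA inhibits CPT1, had ratios of -0.61, -0.85 and -0.84 at 3 days and -0.70, -0.70 and -1.08 at 7 days. All 6 lay below its ratios at 1 day, -0.14, -0.23 and -0.08. Its means were -0.77 (adjusted p = 0.000457) and -0.83 (adjusted p = 0.000201), and the fall of 0.68 from 1 to 7 days passed the test (log2 difference -0.68, adjusted p = 0.0165). At 14 days of H2-water it was -0.064 and not called.

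Acsl3 and Acsl5 code for acyl-CoA synthetases, which activate fatty acids. Acsl3 was at -0.55 (adjusted p = 0.00589) and -0.67 (0.00151) after 3 and 7 days, and Acsl5 at -0.39 (0.00200) and -0.31 (0.00378). Slc27a5, a liver fatty acid transporter and bile acid CoA ligase, was higher at 1, 3 and 7 days by 0.14, 0.12 and 0.18. Slc22a5, the carnitine transporter of the plasma membrane, passed no test against its control but rose by 0.45 from 1 to 7 days (adjusted p = 0.0479). Slc25a20, which exchanges acylcarnitine across the inner membrane, was at -0.092, -0.0064, -0.0093 and 0.00072 in the 4 groups and was not called. Cpt1b, the muscle form of CPT1, was higher at 14 days (0.44, adjusted p = 0.0174).

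**Figure D4:**
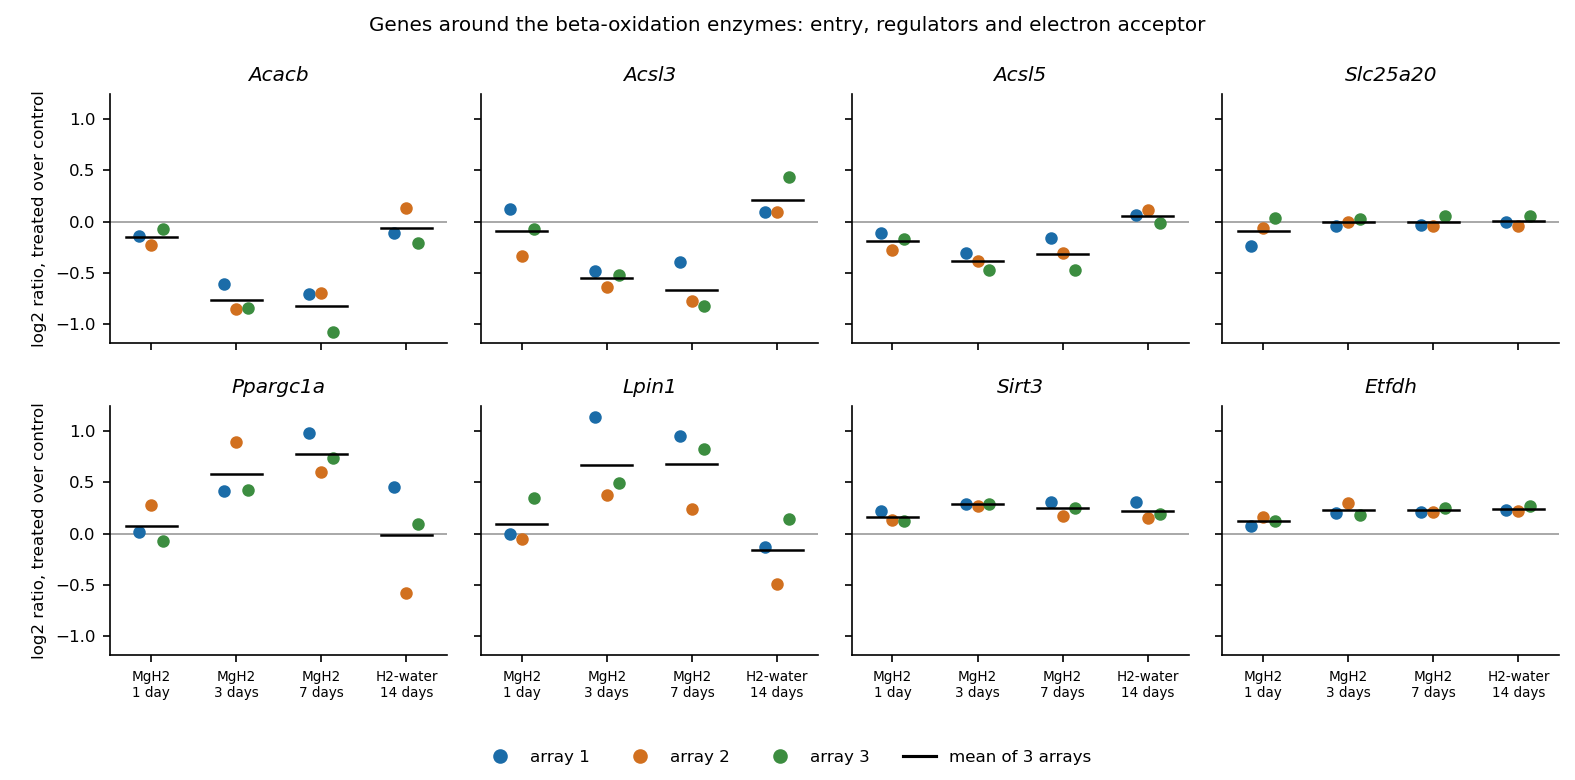
Log2 ratio of treated over control signal (vertical axis) on each array, by group (horizontal axis), for 8 genes around the beta-oxidation enzymes, each with its brightest probe. Points are arrays, colored by array number, and bars the mean of 3. Acacb, Acsl3 and Acsl5 lie below 0 after 3 and 7 days of MgH2, Ppargc1a and Lpin1 above it, and Slc25a20 near 0 throughout.

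Among 12 other matrix enzymes, 4 were lower at 1 day, 2 higher and 4 lower at 3 days, 1 higher and 4 lower at 7 days and none at 14 days, against 4.23% of all probes lower at 1 day, 12.3% higher and 11.1% lower at 3 days and 15.3% higher and 14.2% lower at 7 days. From 7 to 14 days 1 of the 12 was higher, and 6.61% of all probes were called in that comparison. Acot2, a thioesterase that splits acyl-CoA, was lower at 1 day (-0.52, adjusted p = 0.0275). Acad10, a dehydrogenase relative, was at -0.26 and -0.24 after 3 and 7 days (adjusted p = 0.00377 and 0.00319), Acad9 at -0.18 and -0.19 (0.0198 and 0.0119). Decr1, the dienoyl-CoA reductase, was lower by -0.17, -0.15 and -0.24 and Acat1, the acetoacetyl-CoA thiolase, by -0.17, -0.15 and -0.18 at 1, 3 and 7 days. Eci2, an isomerase like Eci1, was higher at 3 and 7 days by 0.22 and 0.22, and Hsd17b10, a short-chain dehydrogenase, at 3 days by 0.22.

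Of the 3 genes that pass electrons from the dehydrogenases to the respiratory chain, Etfdh was higher at 3, 7 and 14 days (0.23, 0.23 and 0.24, adjusted p = 0.00173, 0.00113 and 0.00261). Etfb was higher at 3 days (0.10, adjusted p = 0.0422).

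Among 9 regulators, 1 was higher at 1 day, 4 at 3 days, 4 at 7 days and 1 at 14 days, where 1 was lower. The shares of all probes that were higher were 5.15%, 12.3%, 15.3% and 4.92%, and 3.9% were lower at 14 days. Ppargc1a, the coactivator PGC-1α, had ratios of 0.02, 0.28 and -0.08 at 1 day, 0.42, 0.89 and 0.43 at 3 days, 0.98, 0.60 and 0.74 at 7 days and 0.46, -0.58 and 0.09 at 14 days. It was higher after 3 days (0.58, adjusted p = 0.0330) and 7 days (0.77, adjusted p = 0.00768), and the H2-water arrays fell on both sides of 0. Lpin1, a coactivator and phosphatidate phosphatase, was at 0.67 and 0.68 on these days (0.0224 and 0.0174). Sirt3, the mitochondrial deacetylase, was higher in all 4 groups (0.16, 0.28, 0.25 and 0.22). Hnf4a, a hepatocyte transcription factor, was lower at 14 days (-0.21, adjusted p = 0.0381). Ppara, the receptor that many of these genes answer to, was at 0.085, -0.062, -0.14 and 0.28 and was not called. No regulator passed the test between days. Creb3l3 (0.22 and 0.23) was the fourth called at 3 and 7 days and is named after its values were seen.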

How the data were processed

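Liver RNA pools were compared on 12 two-color arrays (SurePrint G3 Mouse GE). Intensity values of both channels were deposited by the authors as Feature Extraction gave them, after background correction and dye normalization by that software. The raw intensities served for normexp (offset 50) and loess as an alternative. The deposited log10 ratio and the deposited table of log2 values equal the log2 ratio of those intensities, with a largest difference of 1.4e-06. The submitters' notes name Feature Extraction 10.10.1. The software's own p-values for single arrays were not used.

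Control spots and the 160 to 244 flagged spots per array were left out, spots of a probe were averaged, and a gene was represented by its brightest probe. Gene symbols come from RefSeq records (67.9% of probes). All 12 arrays were fitted with limma 3.58.1 (R 4.3.3), a mean per group, two-sided, with Benjamini-Hochberg adjustment over probes above background in both channels. Tested on simulated data, this recovered 62.5% to 85.5% of 200 probes changed 1.5-fold over the 9 comparisons. The simulated arrays were independent, while the MgH2 arrays correlated by replicate number. The largest change of a member was 1.34-fold, so the recovery at the members' sizes of change is not given by it. The number of arrays limits the precision. The members and lists were chosen with earlier results of these data known. All members are named, and other genes are at most the 3 called with the largest change in each direction per list and comparison. Ppara, Ppargc1a and Slc25a20 were added. Some calls of listed genes between days are counted without naming the gene. Alternatives covered channel scaling, background correction, the dim-probe filter, arrays fitted, replicate block, slide, probe choice, left-out arrays and the methods' t-test.

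The MgH2 arrays were linked by replicate number, which the reported tests, also those between days, did not take into account. Deviations of ratios from the group means correlated at 0.368 to 0.655 within a number and at -0.433 to 0.0531 between numbers, over 18411 probes. The control channel gave 0.322 to 0.671 within a number and the treated channel -0.296 to 0.176. The summed control signal of the 6 adipocyte genes, picked after the values were seen, was 153, 768 and 674 on arrays 1 to 3 of 1 day. It was 142, 783 and 752 at 3 days and 146, 751 and 677 at 7 days. Whether the same control pools served several days is not given in the sources used here and was not tested. If they did, the ratios of the MgH2 days share their controls and are not independent. Ratios of the 14-day arrays correlated with those of the MgH2 arrays at -0.041 to 0.287 within a number.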

Additional observations from a re-analysis of the deposited data

Results flagged for a closer look

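The response of Cpt1a differed between 1 and 7 days of MgH2, by 0.33 on the log2 scale (adjusted p = 0.0187 by limma), and that of Acadl by 0.26 (adjusted p = 0.0416). In both cases the arrays of the 2 days did not overlap, and 15.2% of all probes were likewise higher without overlap. No slide held both days, and both calls were lost when some single arrays were left out. The dimmer Cpt1a probe was not called (adjusted p = 0.105 by limma). For Acadl the arrays of 1 day were below 0 and those of 7 days above it.

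The other 3 differences had all arrays of one group below 0 and all of the other above it, but did not pass the test. They were Acaa2 between 14 and 7 days (0.14, adjusted p = 0.14), Acadl between 14 days and 1 day (0.21, adjusted p = 0.233) and Acaa2 between 14 days and 1 day (0.15, adjusted p = 0.318). The groups held 3 arrays each, too few for a test of single outlying arrays.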

How the results depend on the processing

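Of 1400 member values under the alternatives, 95 lost and 5 gained a call in the same direction. The sign differed from the reported one in 41, none of them a called value, with reported log2 values of at most 0.093 in size. Of these 41, 2 passed the threshold on the other side of 0, both of Acaa2 under normexp and loess (0.13 at 3 days and 0.11 at 7 days). The number of members called, 3, 4, 4 and 3 in order of days and 2 between 1 and 7 days, was 0, 1, 2, 1 and 0 without the filter on dim probes. Fitting the arrays of the groups compared alone gave 0, 0, 1, 0 and 0. The methods' t-test gave 0 in all 4 groups after Benjamini-Hochberg adjustment, and 3, 0, 1 and 2 unadjusted. Leaving out 1 array gave 0 to 1 at 1 day, 1 to 2 at 3 days, 1 to 2 at 7 days, 0 to 2 at 14 days and 0 to 2 between 1 and 7 days. Cpt1a at 7 days was the call that held when only its own arrays were fitted (adjusted p = 0.0284). The replicate block changed no member's call on the MgH2 days (3, 4 and 4), while limited to the MgH2 arrays it added Hadhb at 14 days (adjusted p = 0.0494), as did the slide as a random block (0.0476). Over all probes the replicate block raised the calls from 1846 to 2967 at 1 day, from 1803 to 2804 at 14 days, from 4 to 64 between 1 and 3 days, from 1332 to 2571 between 1 and 7 days, from 1235 to 2490 between 7 and 14 days and from 14 to 158 between 1 and 14 days. Scaling the channels by their totals moved the probes called at 1 day from 1013 higher and 833 lower to 717 and 1580, at 3 days from 2389 and 2153 to 1759 and 2824, at 7 days from 2973 and 2774 to 2382 and 3353, and at 14 days from 1006 and 797 to 791 and 1173. The probes called in all ranged over the alternatives other than left-out arrays from 101 to 3588 at 1 day, 292 to 6571 at 3 days, 2176 to 8560 at 7 days and 502 to 3391 at 14 days, and the methods' t-test after adjustment called 102, 1, 0 and 0. Without the filter on dim probes the calls were 109 between 1 and 7 days and 6642 between 7 and 14 days. The cause of these changes was not tested. All 10 members stayed above 0 between 14 days and 1 day in all 17 settings, the reported one included, in 16 of 17 between 3 days and 1 day and in 10 of 17 between 7 days and 1 day, with Acaa2 and at times Eci1 as exceptions.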
